A study of Homo sapiens with 12 samples.

Results

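The genes described here encode the machinery of excision repair, mismatch repair and end joining, together with the enzymes that clean blocked DNA ends and the polymerases that copy past lesions. They were chosen by symbol from a list of 46 genes, of which 45 were among the 14828 genes of the deposited expression table and passed the filter on low values. NHEJ1 was not analysed here. The list falls into end joining (6 genes measured), base excision and single-strand break repair (15), mismatch repair (5), nucleotide excision repair (12), end cleaning (3) and translesion synthesis (4). The measurements come from 22Rv1, a human prostate carcinoma cell line, in which the histone H3 variant CENPA, the nucleosome component that marks centromeres, was depleted by RNA interference. Cells carried a nontargeting short hairpin RNA (shNT) or 1 of 2 hairpins against CENPA (shCENPA1 and shCENPA2), introduced by lentivirus in the pTRIPZ Tet-On vector, and all groups received doxycycline at 2 µg/ml for 72 h. Polyadenylated RNA was sequenced from 2 libraries per hairpin, each run in 2 lanes that were averaged, so each group has n = 2 libraries. The sources do not say whether the libraries of a group came from separate cultures, so the p-values measure the spread between these libraries only.

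End joining religates double-strand breaks without a template: the Ku heterodimer (XRCC6 and XRCC5) binds the ends and recruits the kinase PRKDC, the nuclease DCLRE1C trims them, and XRCC4 with LIG4 seals them. Base excision repair removes damaged or misplaced bases with a glycosylase and refills the gap, nucleotide excision repair cuts out a stretch of strand around a bulky lesion, and mismatch repair corrects replication errors behind the fork. Several of these pathways share their last steps, gap filling and ligation, with the replication machinery, and some of their genes are known to be transcribed mainly around the start of S phase.

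The libraries held 79172294 to 133074655 reads on genes. Levels are given as log2 RPKM (reads per kilobase of gene, scaled to sequencing depth, on the log2 scale). CENPA itself had a log2 RPKM of 2.46 and 2.18 in shNT, 0.50 and 0.58 in shCENPA1, and -0.47 and -0.41 in shCENPA2 libraries. All 6 libraries thus matched their labels as knockdown or shNT. The level of CENPA alone cannot tell which CENPA hairpin a library carries. The depletion was -1.78 on the log2 scale with shCENPA1 (adjusted p = 0.000287) and -2.76 with shCENPA2 (adjusted p = 1.1e-05). Adjusted p-values throughout are from limma with Benjamini-Hochberg adjustment over all 14624 genes tested, a gene was called at an adjusted p under 0.05, and both knockdown comparisons share the same shNT libraries. The 15 proliferation markers examined were called lower with both hairpins, 15 of 15 each time, and their median change was -1.15 (shCENPA1) and -1.60 (shCENPA2) on the log2 scale. Their part in the results below was not tested, and in RNA from a whole culture fewer cells of a kind and less RNA per cell cannot be told apart. Of 5 markers of prostate epithelium, FOLH1, KRT8 and KRT18 had a log2 RPKM of at least 5.63 in every library, while KLK2 (at most 0.62) and KLK3 (at most -0.48), both secreted proteases, were low.

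Promoter sequences are shown because the genes of DNA replication and repair are known to share binding letters for E2F, a transcription factor family active at the G1/S transition. In the windows of 300 bases around the starts (250 before and 50 after, RefSeq, GRCh38.p14), the letters TTTCGCGC, TTTGGCGC, TTTCCCGC or TTTGCCGC, read on both strands, occurred in 7 of the 40 repair genes that had a window (17.5%), against 6.55% of 10148 genes tested with a window. Below, the match is in capitals within 30 bases, written 5′ to 3′ on the strand of the gene. They are shown for the 7 genes, MSH6 first because it was called with both hairpins:
MSH6 (chr2:47783137-47783166, plus strand): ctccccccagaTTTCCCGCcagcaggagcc
UNG (chr12:109098098-109098127, plus strand): gagggaggtttTTTGCCGCgaaaagaccac
MSH3 (chr5:80654534-80654563, plus strand): gcgcggtcaagTTTGGCGCgaaattgtggc
PMS2 (chr7:6009131-6009160, minus strand): cgggaagtattTTTGCCGCcccgcccggaa
REV3L (chr6:111483288-111483317, minus strand): ctctcgctcctTTTCCCGCcgagccccctc
XPC (chr3:14178822-14178851, minus strand): cctgcgcccTTTCCCGCctctcgcgagaac
XRCC6 (chr22:41621315-41621344, plus strand): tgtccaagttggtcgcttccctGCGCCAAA
The match began 4 bases after the start of MSH6 (counting the start as base 1), 63 bases before that of UNG and 107 before that of MSH3. MSH3 held a second match that overlaps this one. The other matches began 88 bases before the start of REV3L, 241 before that of XPC and 43 bases after that of XRCC6, and the match of PMS2 lay 43 or 100 bases before either of 2 annotated starts.

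Of the 54 other genes of these pathways that had a window, 10 held the letters (18.5%), close to the 17.5% above. Of the 14 among them that were called lower with both hairpins, a choice that uses their values, 5 did (35.7%), and these 5 are shown:
EXO1 (chr1:241848197-241848226, plus strand): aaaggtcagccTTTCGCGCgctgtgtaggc
LIG1 (chr19:48170440-48170469, minus strand): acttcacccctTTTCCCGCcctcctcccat
PCNA (chr20:5126663-5126692, minus strand): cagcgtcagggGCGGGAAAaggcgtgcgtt
RFC3 (chr13:33818083-33818112, plus strand): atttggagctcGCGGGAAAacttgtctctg
POLE2 (chr14:49688201-49688230, minus strand): ctgcggcggtgGCGCCAAAtcgcaaatatg
Of the 7 repair genes in the first set, MSH6 was called and UNG, MSH3, PMS2, REV3L, XPC and XRCC6 were not. A match describes these letters in this window and is not a measured binding site. The CHR letters TTTGAA, which mark some genes of late cell cycle, occurred in 17.5% of the repair genes and 13.3% of all, and CCAAT in 52.5% and 43.3%. Both strands were read for each, and none of these strings contains another.

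The 250 bases before the start of the 3 members with the largest called decreases are given next, with any match in capitals. PARP2 held none of the letters, MSH6 a CCAAT on the other strand (ATTGG, 47 bases before the start), and DDB2 CCAAT at 236, 72 and 42 bases before the start. MSH6 and DDB2 have further annotated starts that are not printed.
PARP2 (chr14:20343385-20343634, plus strand): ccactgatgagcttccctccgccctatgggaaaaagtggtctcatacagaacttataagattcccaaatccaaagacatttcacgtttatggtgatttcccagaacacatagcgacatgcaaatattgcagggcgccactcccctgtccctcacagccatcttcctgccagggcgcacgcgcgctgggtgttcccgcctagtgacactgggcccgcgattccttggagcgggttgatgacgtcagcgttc
MSH6 (chr2:47782895-47783144, plus strand): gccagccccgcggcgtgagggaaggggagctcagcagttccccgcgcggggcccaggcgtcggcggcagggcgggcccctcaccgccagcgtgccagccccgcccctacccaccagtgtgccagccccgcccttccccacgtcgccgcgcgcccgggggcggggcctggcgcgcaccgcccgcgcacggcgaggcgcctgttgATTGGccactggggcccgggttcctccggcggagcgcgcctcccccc
DDB2 (chr11:47214204-47214453, plus strand): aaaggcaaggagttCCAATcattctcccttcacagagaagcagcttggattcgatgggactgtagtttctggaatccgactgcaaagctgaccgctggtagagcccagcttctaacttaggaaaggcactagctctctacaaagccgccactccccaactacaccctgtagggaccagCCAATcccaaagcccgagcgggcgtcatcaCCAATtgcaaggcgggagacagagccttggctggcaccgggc

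Few of the 45 genes were called after CENPA depletion. With shCENPA1, 1 gene (MSH6) was called lower and 0 were called higher, against 4.45% of all genes tested called lower and 2.69% called higher. At an unadjusted p under 0.05 limma gave 7 lower and 1 higher, and voom on recovered reads called 2 lower and 0 higher. With shCENPA2, 4 genes (PARP2, DDB2, MSH6 and XRCC4) were called lower and 2 (ERCC1 and LIG4) higher, against 10.5% and 8.05% of all genes. Leaving out 1 library leaves a single library in its group and widens the error for every gene. A call lost that way, here and below, therefore does not show that it rested on the library removed. The log2 fold change of MSH6 with shCENPA1 was -0.64 and -0.51 without shNT library 1 and 2, and -0.63 and -0.53 without shCENPA1 library 1 and 2. The counts in the list were thus no larger, as shares, than those of the whole table in either direction. By limma, no gene was called and also changed beyond a log2 fold change of 1 with either hairpin (0 of 45). Of all genes, 2.65% were with shCENPA1 and 6.13% with shCENPA2. An unadjusted limma p under 0.05 was found for 8 and 13 of the 45, beside 3223 and 4718 of all 14624 genes tested.

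The median log2 fold change over the 45 genes was -0.05 with shCENPA1 and 0.0019 with shCENPA2, beside 0.003 and 0.0122 over all genes tested. Changes were negative for 25 of the 45 genes with shCENPA1 and for 22 with shCENPA2. The data bound the changes as well: the 95% interval lay within a log2 fold change of 1 in either direction for 44 of 45 genes with shCENPA1 and 43 of 45 with shCENPA2, where the same held for 86.6% and 81.5% of all genes. The exceptions were ERCC5 with shCENPA1 (lower bound -1.28), and PARP2 (-1.12) and DDB2 (-1.02) with shCENPA2. All 4 knockdown libraries were below both shNT libraries for 13 of the 45 genes and above both for 5, where 20.5% and 20.3% of all genes did so.

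**Figure D1:**
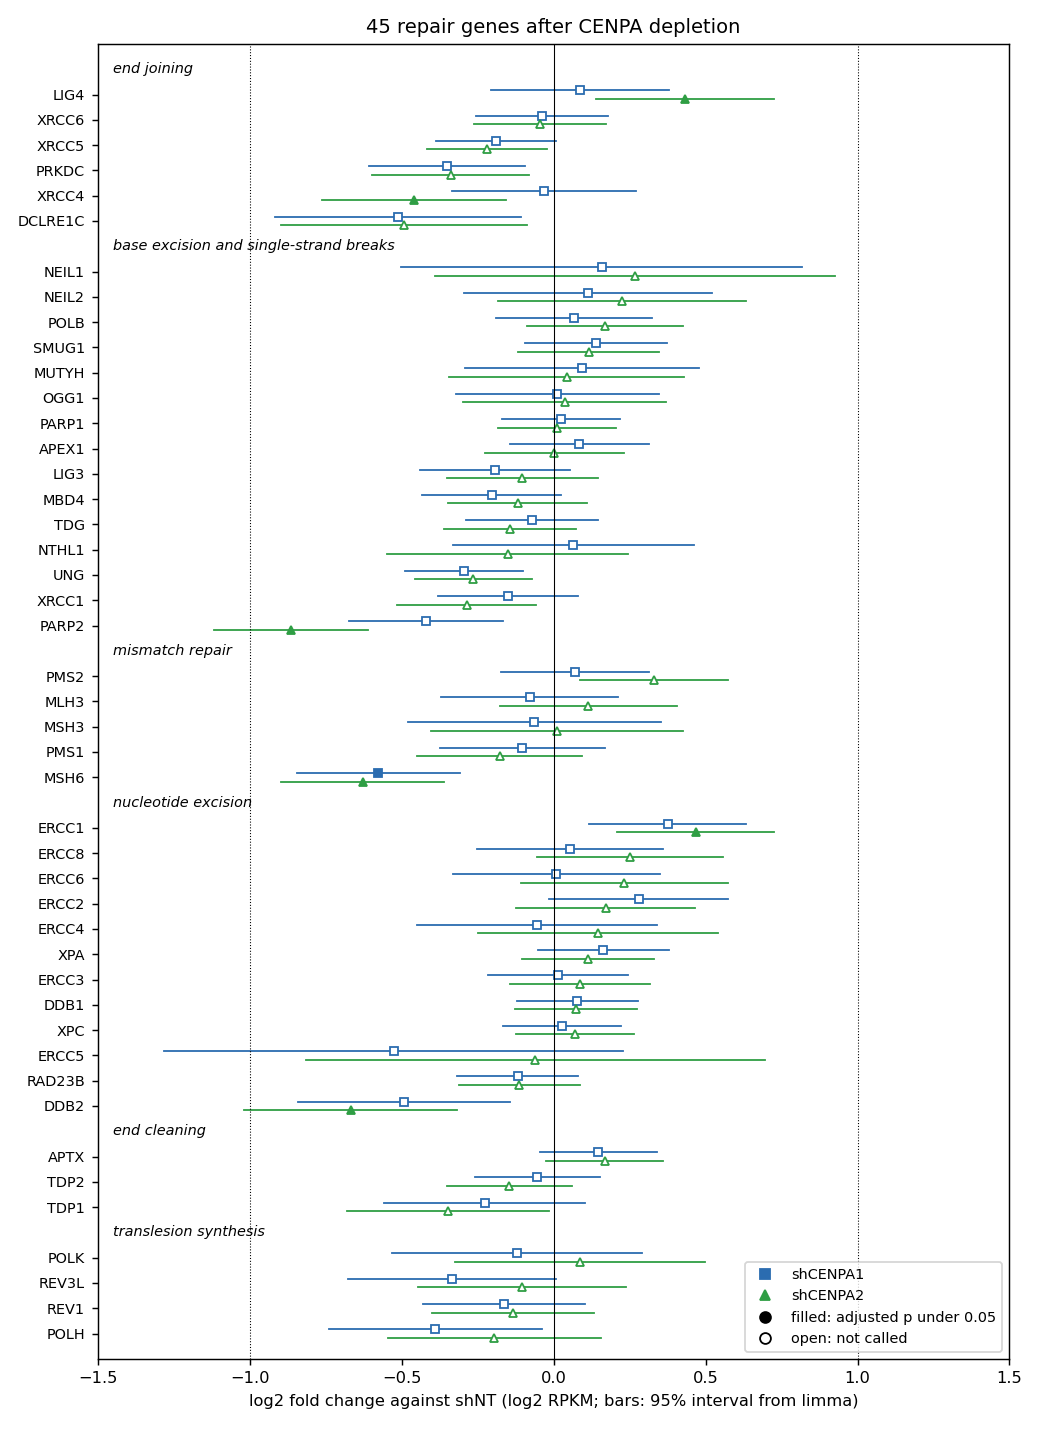
Log2 fold change against shNT of 45 repair genes (x axis, log2 RPKM), grouped by pathway, with shCENPA1 as blue squares and shCENPA2 as green triangles; bars are 95% intervals from limma (n = 2 libraries per group), filled symbols have an adjusted p under 0.05, and dotted lines mark a log2 fold change of 1. The filled symbols are MSH6 with both hairpins and PARP2, DDB2, XRCC4, ERCC1 and LIG4 with shCENPA2, and none lies beyond a dotted line.

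Mismatch repair held the 1 gene called with both hairpins. MSH6, a subunit of the complex that recognises base mismatches and small loops, had a log2 RPKM of 2.59 and 2.72 in shNT, 2.13 and 2.03 with shCENPA1, and 1.96 and 2.10 with shCENPA2. Every knockdown library was below both shNT libraries. The means were 2.66 ± 0.09 (SD, n = 2), 2.08 ± 0.07 and 2.03 ± 0.10, and the log2 fold changes were -0.58 with shCENPA1 (95% interval -0.85 to -0.31, adjusted p = 0.0197) and -0.63 with shCENPA2 (-0.90 to -0.36, adjusted p = 0.006). On a linear scale MSH6 fell by 32.9% with shCENPA1 and fell by 35.3% with shCENPA2. The call with shCENPA1 was lost without any 1 of the 4 libraries compared, at adjusted p = 0.0829 and 0.251 without shNT library 1 and 2, and 0.0597 and 0.123 without shCENPA1 library 1 and 2. The call with shCENPA2 was lost without shNT library 2 (adjusted p = 0.0827). MSH6 lies on chromosome 2 (47695530 to 47810063, plus strand, GRCh38) and its exons overlap those of FBXO11 on the other strand, whose log2 fold changes were 0.00 and 0.04.

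The other mismatch repair genes described were not called. MSH3, which acts on larger loops, had log2 fold changes of -0.06 and 0.01 (95% intervals -0.48 to 0.35 and -0.41 to 0.43). PMS2, an endonuclease subunit and the mismatch repair member with the highest level, had a log2 RPKM of 3.75 and 3.74 in shNT, 3.96 and 3.67 with shCENPA1, and 4.08 and 4.07 with shCENPA2. Its log2 fold changes were 0.07 (adjusted p = 0.742) and 0.33 (adjusted p = 0.0635). PMS2 has near-identical pseudogene copies that could split its reads, so its level is uncertain. MLH3 and PMS1, which act in meiotic and minor complexes, had log2 fold changes between -0.18 and 0.11.

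In base excision and single-strand break repair the paralogs PARP1 and PARP2, which sense strand breaks by making poly(ADP-ribose), gave different values. PARP2 had a log2 RPKM of 3.20 and 3.34 in shNT, 2.82 and 2.87 with shCENPA1, and 2.5 and 2.31 with shCENPA2. All knockdown libraries were below both controls, and the shCENPA2 libraries were below the shCENPA1 libraries. The log2 fold change was -0.42 with shCENPA1 (95% interval -0.67 to -0.17, adjusted p = 0.0577) and -0.86 with shCENPA2 (-1.12 to -0.61, adjusted p = 0.000781), the largest change in the list. On a linear scale PARP2 fell by 45% with shCENPA2, and that call held without any 1 library. The log2 difference between the hairpins was -0.44 (unadjusted p = 0.00327, adjusted p = 0.114), which does not pass the test.

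PARP1, the more abundant paralog by 11.2-fold per length in shNT cells, had a log2 RPKM of 6.77 and 6.75 in shNT, 6.79 and 6.78 with shCENPA1, and 6.79 and 6.75 with shCENPA2. Its log2 fold changes were 0.03 and 0.01, with 95% intervals from -0.17 to 0.22 and from -0.18 to 0.20. PARP1 lies on chromosome 1 (226360210 to 226408154, minus strand) and PARP2 on chromosome 14 (20343615 to 20357904, plus strand). The exons of PARP2 overlap 2 unnamed genes on the other strand.

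UNG, the glycosylase that removes uracil from DNA, had a log2 RPKM of 6.04 and 6.04 in shNT, 5.69 and 5.81 with shCENPA1, and 5.77 and 5.79 with shCENPA2. All 4 knockdown libraries were below both shNT libraries, and the 2 knockdowns overlapped each other, but the log2 fold change of -0.29 (adjusted p = 0.0771) and -0.26 (adjusted p = 0.063) was not called. The other glycosylases (OGG1, MUTYH, NTHL1, TDG, SMUG1, MBD4, NEIL1 and NEIL2) had log2 fold changes between -0.20 and 0.27. APEX1, which cuts the strand at the site left by a glycosylase, had log2 fold changes of 0.08 and 0.00, and the gap-filling polymerase POLB at 0.07 and 0.17. XRCC1, the scaffold that holds these proteins at a nick, had log2 fold changes of -0.15 and -0.29 (adjusted p = 0.0831 with shCENPA2), and its ligase LIG3 at -0.19 and -0.10.

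**Figure D2:**
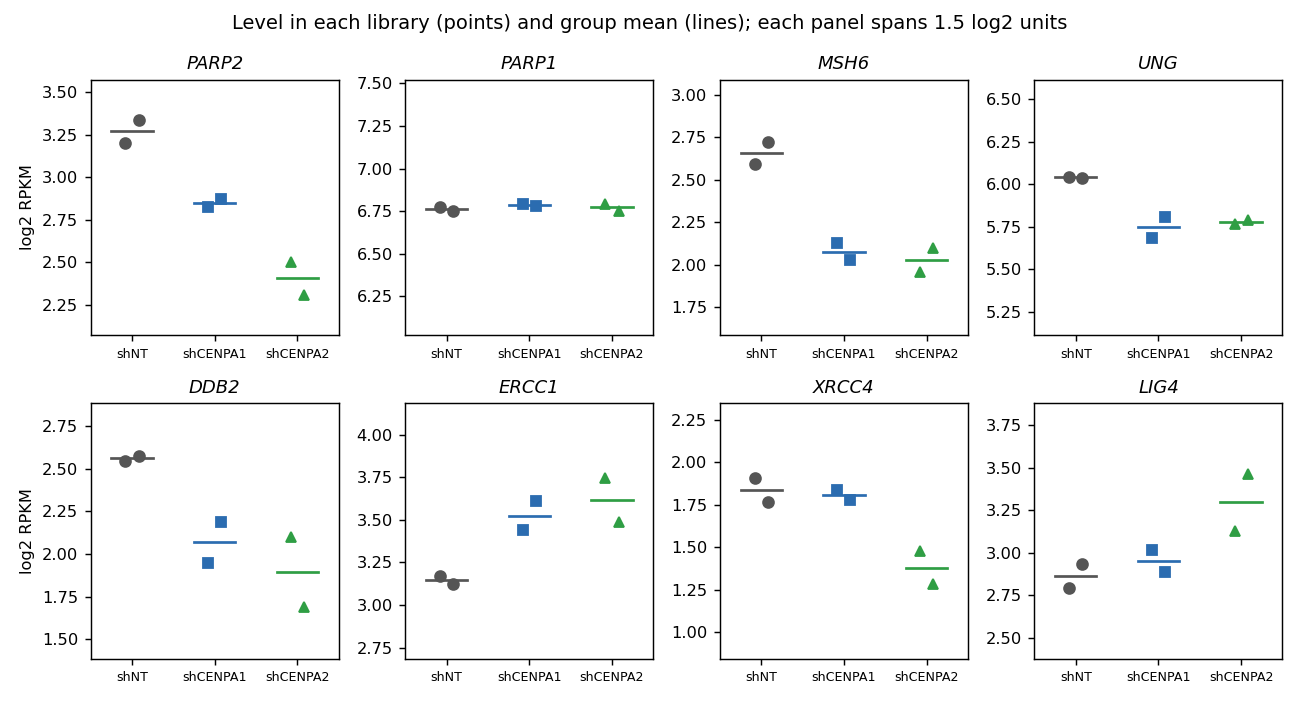
Log2 RPKM (y axis) of 8 genes in each library (points) of shNT, shCENPA1 and shCENPA2 (x axis), with lines at the group means; each panel spans 1.5 log2 units. PARP2, MSH6, UNG and DDB2 lie below shNT in all 4 knockdown libraries and ERCC1 above, PARP1 stays within 6.75 to 6.79, and XRCC4 and LIG4 separate from shNT with shCENPA2.

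Among the end-joining genes, the 2 partners of the ligation complex were called in opposite directions with shCENPA2. XRCC4, LIG4, PARP2 and ERCC1 are described library by library because they were called with that hairpin, a choice made after their values were seen. XRCC4 had a log2 RPKM of 1.91 and 1.77 in shNT, 1.83 and 1.78 with shCENPA1, and 1.48 and 1.28 with shCENPA2. The shCENPA1 libraries lay among the controls and the shCENPA2 libraries below them. Its log2 fold change with shCENPA2 was -0.46 (95% interval -0.76 to -0.16, adjusted p = 0.042). LIG4 had a log2 RPKM of 2.79 and 2.93 in shNT, 3.02 and 2.89 with shCENPA1, and 3.13 and 3.46 with shCENPA2, a log2 fold change of 0.43 with shCENPA2 (0.14 to 0.72, adjusted p = 0.0467). Both calls are close to the threshold. Each was lost under 10 of 18 alternatives, among them the removal of either shNT library, either shCENPA1 library or shCENPA2 library 2, where the adjusted p-values ran from 0.0557 to 0.31 for XRCC4 and from 0.0707 to 0.26 for LIG4. Between the hairpins the log2 difference was -0.43 for XRCC4 (adjusted p = 0.195) and 0.35 for LIG4 (adjusted p = 0.292).

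XRCC6, the Ku70 subunit and the gene with the highest level in the list, had a log2 RPKM of 7.19 and 7.17 in shNT, 7.07 and 7.22 with shCENPA1, and 7.10 and 7.17 with shCENPA2. The groups overlapped, and the log2 fold changes were -0.04 and -0.05. XRCC5, the Ku80 subunit, had log2 fold changes of -0.19 (adjusted p = 0.242) and -0.22 (adjusted p = 0.116). PRKDC, the catalytic kinase, had log2 fold changes of -0.35 and -0.34 (adjusted p = 0.107 and 0.0704), and DCLRE1C, known as Artemis, at -0.51 and -0.49 (adjusted p = 0.13 and 0.0896). All 4 knockdown libraries of these last 3 genes were below both shNT libraries, though none passed the test. The exons of DCLRE1C overlap those of SUV39H2, on the other strand, which had log2 fold changes of -0.40 and -0.53 (adjusted p = 0.078 and 0.013).

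Nucleotide excision repair held 1 called gene in each direction, both with shCENPA2. DDB2, the damage sensor that binds ultraviolet lesions and a known p53 target, had a log2 RPKM of 2.55 and 2.58 in shNT, 1.95 and 2.19 with shCENPA1, and 2.10 and 1.69 with shCENPA2. All knockdown libraries were below both controls, and the libraries of each knockdown differed more from each other than those of shNT. The log2 fold changes were -0.49 (95% interval -0.84 to -0.14, adjusted p = 0.0969) and -0.67 (-1.02 to -0.32, adjusted p = 0.0161). The call with shCENPA2 was lost without shNT library 1 (adjusted p = 0.0573), shNT library 2 (0.0717) or shCENPA2 library 2 (0.0637). DDB2 lies on chromosome 11 (47214465 to 47239217, plus strand). Its partner DDB1, the adaptor of the CUL4 ubiquitin ligase, had log2 fold changes of 0.08 and 0.07.

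ERCC1, the partner of the nuclease ERCC4 in the 5′ incision, had a log2 RPKM of 3.17 and 3.12 in shNT, 3.44 and 3.61 with shCENPA1, and 3.74 and 3.49 with shCENPA2. Every knockdown library was above both controls. The log2 fold changes were 0.38 (95% interval 0.12 to 0.63, adjusted p = 0.0892) and 0.47 (0.21 to 0.73, adjusted p = 0.0206), and the second call was lost without shNT library 1 (adjusted p = 0.0838), shNT library 2 (0.13) or shCENPA2 library 1 (0.0909). The exons of ERCC1 overlap those of POLR1G, on the other strand, whose values are not given here. ERCC4 had log2 fold changes of -0.05 and 0.15. ERCC2, a helicase of TFIIH, had log2 fold changes of 0.28 and 0.17 (neither called), and its exons overlap KLC3, on the other strand, which was called higher with both (log2 fold changes 0.66 and 0.77).

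XPC, which recognises helix distortion and is also a p53 target, had a log2 RPKM of 3.76 and 3.77 in shNT, 3.81 and 3.77 with shCENPA1, and 3.83 and 3.84 with shCENPA2, log2 fold changes of 0.03 and 0.07 with 95% intervals from -0.17 to 0.22 and from -0.12 to 0.26. Its partner RAD23B, the most abundant gene of the pathway, had a log2 RPKM of 6.10 and 6.11, 6.04 and 5.94, and 5.94 and 6.04 in the same order. Its log2 fold changes were -0.12 and -0.11. The other genes of the pathway that were not called (XPA, ERCC3, ERCC6 and ERCC8) had log2 fold changes between 0.01 and 0.25. ERCC5, the 3′ nuclease, had log2 fold changes of -0.53 and -0.06 and rested on 84 to 188 reads per library, and its exons overlap those of the readthrough gene BIVM-ERCC5 on the same strand. Of the 14 p53 targets examined beside DDB2 and XPC, 2 were called lower and 3 higher with each hairpin. Of all genes, 4.45% and 2.69% were with shCENPA1, and 10.5% and 8.05% with shCENPA2. The genes called higher were the same (GDF15, SESN2 and TNFRSF10B). CDKN1A and FAS were called lower with shCENPA1 and had log2 fold changes of -0.23 and -0.46 with shCENPA2 (adjusted p = 0.185 and 0.0505). TP53INP1 and BTG2 were called lower with shCENPA2 and had -0.36 and -0.26 with shCENPA1 (adjusted p = 0.0777 and 0.132). None of these genes called lower was called between the hairpins.

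The enzymes that clean blocked ends were not called. TDP2, which frees the 5′ end from topoisomerase II, had a log2 RPKM of 4.70 and 4.65 in shNT, 4.54 and 4.70 with shCENPA1, and 4.5 and 4.56 with shCENPA2, and its log2 fold changes were -0.05 and -0.15. TDP1, which acts at 3′ ends, had log2 fold changes of -0.23 and -0.35 (adjusted p = 0.411 and 0.138), and APTX, which resolves failed ligations, at 0.15 and 0.17 (adjusted p = 0.355 and 0.212).

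None of the 4 translesion polymerases was called either. POLH, which copies past ultraviolet dimers, had a log2 RPKM of 2.81 and 2.93 in shNT, 2.72 and 2.25 with shCENPA1, and 2.76 and 2.60 with shCENPA2. All knockdown libraries were below both controls, but the shCENPA1 libraries had an SD of 0.33, and the log2 fold changes were -0.39 (adjusted p = 0.181) and -0.20 (adjusted p = 0.429). Its exons overlap those of GTPBP2, on the other strand, which had log2 fold changes of 0.31 and 0.64. REV3L, the catalytic subunit of polymerase zeta, had log2 fold changes of -0.33 and -0.10, REV1 at -0.16 and -0.13, and POLK at -0.12 and 0.09. All 4 genes were lower in shCENPA1 library 2 than in library 1, with a median gap of 0.43 log2 units, where the median gap between these libraries was 0.12 over the 45 genes and 0.16 over all genes tested.

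Between the 2 CENPA hairpins 0 of the 45 genes were called by limma, where 1.42% of all genes were. At an unadjusted p under 0.05 there were 4 of the 45 (XRCC4 and PARP2 lower, LIG4 and PMS2 higher with shCENPA2), beside 1945 of all 14624 genes tested. Voom also called 0 of the 45. CENPA itself differed by -0.98 on the log2 scale, lower with shCENPA2 (adjusted p = 0.0209).

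More of the other genes of the same pathways were called than of these 45. Of 71 genes listed beside them (the gap-filling and replicative factors, other glycosylases and accessory proteins), 61 were tested. With shCENPA1 15 were called lower and 1 higher, and with shCENPA2 20 lower and 1 higher. Over all genes tested, 4.45% and 10.5% were called lower with shCENPA1 and shCENPA2, and 2.69% and 8.05% higher. The median log2 fold changes of the 61 genes were -0.19 and -0.22. Beyond a log2 fold change of 1 and called were 5 of the 61 with shCENPA1 and 11 with shCENPA2. Among the 45 there were 0 and 0, and among all genes 2.65% and 6.13%. Lists of this kind were not compared by a test, so the difference between them is a description.

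The genes beyond 1 with both hairpins were POLQ, EXO1, NEIL3, POLE2 and RFC4. POLQ, the polymerase of microhomology-mediated end joining, had log2 fold changes of -1.44 and -1.94 (adjusted p = 0.00161 and 0.000126). EXO1, the exonuclease that removes the mismatched strand, had log2 fold changes of -1.38 and -2.00. NEIL3, a glycosylase made mainly in dividing cells, had log2 fold changes of -1.41 and -1.5, where NEIL1 and NEIL2 were at 0.16 and 0.27 and at 0.11 and 0.22 and were not called. POLE2, a subunit of polymerase epsilon, had log2 fold changes of -1.01 and -1.28, and RFC4, of the clamp loader, at -1.0 and -1.30. LIG1, FEN1 and PCNA, which finish long-patch base excision and Okazaki fragments, were called with both hairpins and passed 1 with shCENPA2, at log2 fold changes of -1.26, -1.30 and -1.25. The only gene called higher with both was PARP3, at log2 fold changes of 0.65 and 0.87.

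Over all genes tested, 4.13% were called lower with both hairpins. In a pathway of few genes 1 gene is a large share, so counts of 0 or 1 say little beside that figure. In end joining 1 of the 7 other genes (POLQ) and 0 of the 6 members were called lower with both, and in end cleaning 0 of the 2 others and 0 of the 3 members. In base excision 5 of the 11 other genes were called lower with both hairpins, and 0 of the 15 members were. In mismatch repair 6 of the 13 other genes were lower with both, and of the 5 members 1 (MSH6). In nucleotide excision repair 1 of the 18 others and 0 of the 12 members were, and in translesion synthesis 2 of the 10 others and 0 of the 4 members.

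**Figure D3:**
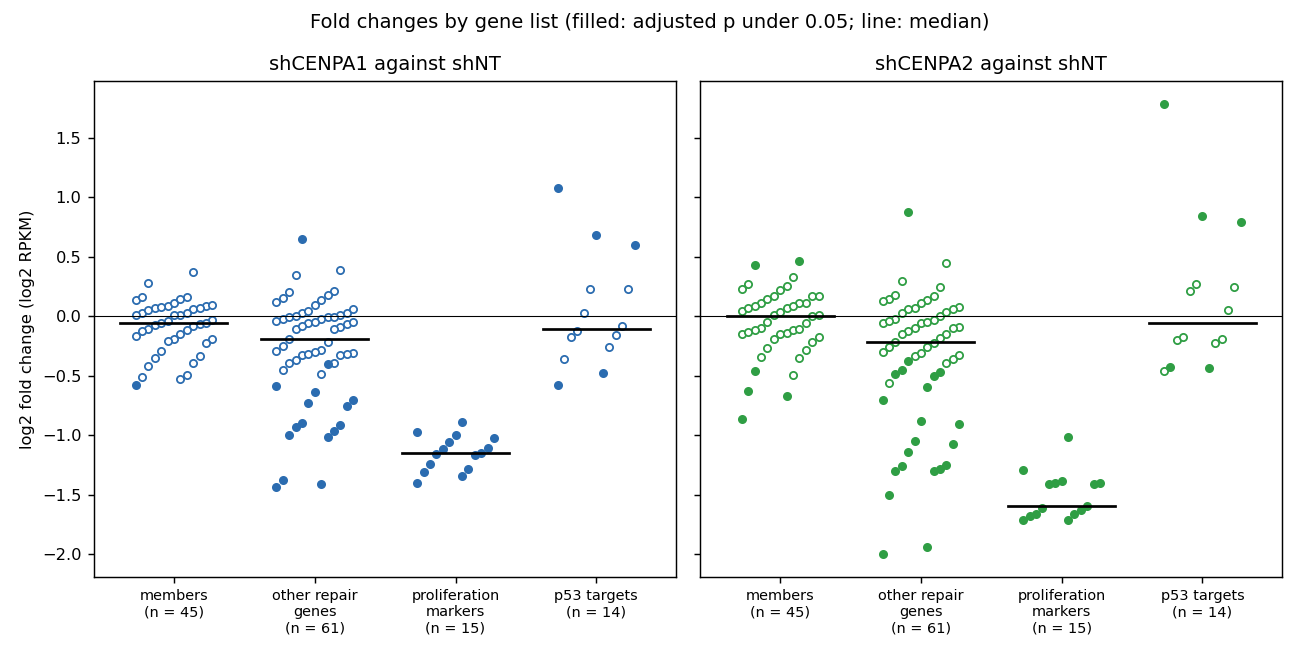
Log2 fold change against shNT (y axis, log2 RPKM) of single genes in 4 lists (x axis) for shCENPA1 (left) and shCENPA2 (right), with black lines at the medians; filled points have an adjusted p under 0.05. The medians of the 45 repair genes are -0.05 and 0.0019, those of the 61 other repair genes -0.19 and -0.22, and those of the 15 proliferation markers -1.15 and -1.60.

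The levels of the 45 genes spanned a wide range. Per length, XRCC6 was highest at a mean log2 RPKM of 7.15 over all libraries and ERCC5 lowest at -2.39, and the median was 2.80, where the median of all genes tested was 2.34. In shNT cells the Ku subunits differed by 1.58-fold (XRCC6 above XRCC5), while XRCC6 was 6.62-fold above PRKDC, 19.9-fold above LIG4 and 40.6-fold above XRCC4, its partners in the same pathway. UNG was 33.3-fold above OGG1, MSH6 6.93-fold above MSH3, RAD23B 5.06-fold above XPC, and DDB1 3.71-fold above DDB2. These comparisons of levels depend on the gene lengths that the authors used, which recovered to whole bases and include long ones for LIG3 (15325) and DDB1 (15068).

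**Figure D4:**
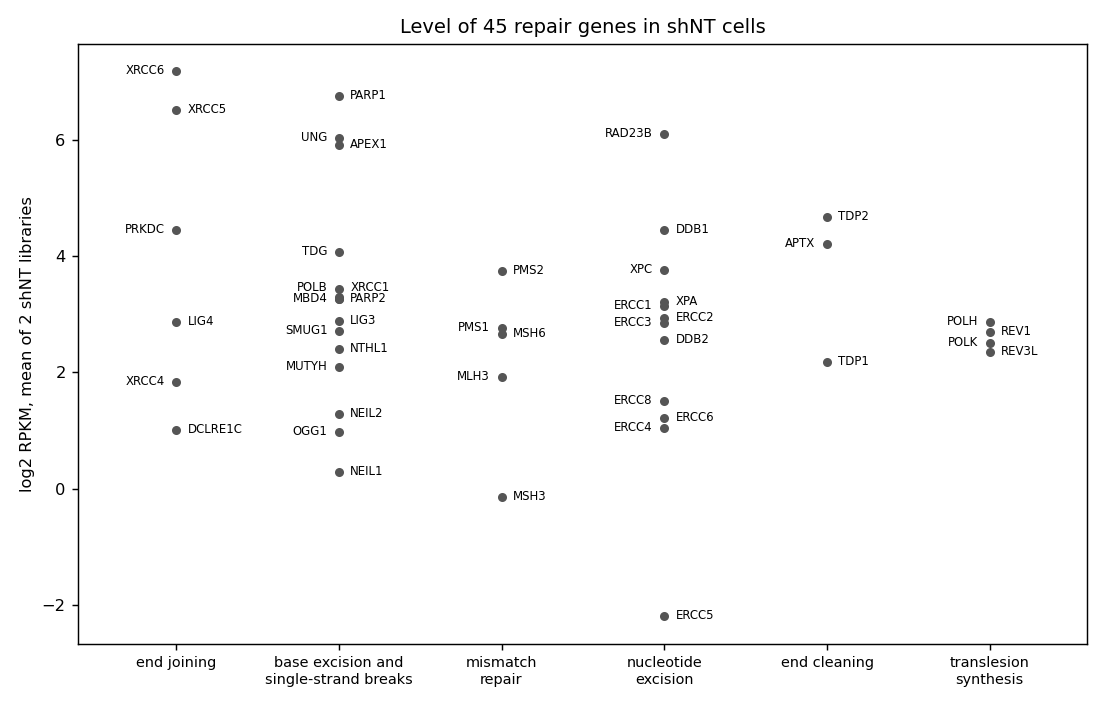
Mean log2 RPKM of 2 shNT libraries (y axis) of 45 repair genes, by pathway (x axis), each point named. XRCC6, XRCC5, PARP1, RAD23B, UNG and APEX1 lie highest, from 5.90 up, and ERCC5 lowest at -2.20.

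Library differences within groups were of the same order as the smaller changes. The median absolute gap between the libraries of a group was 0.06 in shNT, 0.12 in shCENPA1 and 0.12 in shCENPA2 over the 45 genes, below the 0.09, 0.16 and 0.17 over all genes tested. Over the 45 genes the median half-width of the 95% interval was 0.27. This interval is for a single gene and is not adjusted, while a call takes the adjustment over all genes tested. An interval could thus exclude 0 without a call, as for UNG (-0.49 to -0.10 with shCENPA1 and -0.46 to -0.07 with shCENPA2). Of the 45 genes, 26 have an exon on the opposite strand of another gene and 7 share one with a gene of the same strand. The library kit keeps the strand, but the counting setting is not given in the sources used here, so reads of such pairs may not be separated.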

How the data were processed

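RNA from 22Rv1 cells with shNT, shCENPA1 or shCENPA2 was sequenced as 6 libraries in 12 runs. Per the labels and the study's methods, the authors trimmed reads with Trim Galore, aligned them with STAR to hg38 (GRCh38), counted them with HTSeq and used edgeR. Versions are not given in the sources used here. The deposited values are log2 RPKM per gene and run, scaled to adjusted library sizes. Whole reads and gene lengths were recovered from the steps between values for 14828 of 14828 genes (tolerance 0.001 reads, largest distance 3.5e-08), which gave the depth. The values of lanes 7 and 8 were then averaged for each library.

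The 3 groups entered a single limma 3.58.1 fit (R 4.3.3; lmFit, then eBayes with a trend) without covariates, over genes whose mean log2 RPKM reached -3. No constant was added to the values; the deposited ones already hold a small prior, which shrinks fold changes at low levels. The fit was tested on simulated data. An exact permutation test of 2 against 2 libraries cannot go below p = 0.33, so none was used. Alternatives covered lanes, filters, added constants, scaling, variance, the samples fitted, single libraries left out and, chosen after seeing the data, voom on recovered reads and a crossed pairing.

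All members were described by pathway. Values in each library are given for members called with both hairpins, for DDB2, XPC, POLH, UNG and MSH6, and for the most abundant member of each pathway, and other repair genes are named where called and beyond a log2 fold change of 1 with both hairpins. The members and gene lists were chosen with earlier results of these data known. Coordinates come from GENCODE 44, promoters from RefSeq. Some genes are not reported here.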

Additional observations from a re-analysis of the deposited data

How the results depend on the processing

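Each hairpin had 2 libraries, and whether their number or the depth limited the precision was not tested. No called member changed direction under any alternative. The count of members called lower with shCENPA1 (1) was 2 with lane 8 alone, 2 after quantile normalization, 3 with only the groups compared, 2 with voom on recovered reads and 0 at an adjusted p under 0.01. Leaving out 1 library gave 0 to 3. The count called lower with shCENPA2 (4) was 2 at an adjusted p under 0.01 and 1 to 5 with 1 library left out, and that called higher (2) was 1 with lane 7 alone, 1 with lane 8 alone, 0 without a trend in the variance, 0 at an adjusted p under 0.01 and 0 to 2 with 1 library left out. The causes were not tested, apart from fewer libraries or a stricter threshold. The median change with shCENPA2 (0.0019) lies at 0 and its sign turned: it was -0.013 with lane 7 alone, -0.0482 with lane 8 alone, -0.0132 after quantile normalization, and -0.0409 (without shCENPA2 library 1) to 0.0109 with 1 library left out. Counts among the other repair genes stayed at 12 to 16 with shCENPA1 and 14 to 21 with shCENPA2. The sources do not say whether same-numbered libraries were handled together. Over genes, deviations of same-numbered libraries correlated at -0.064, -0.095 and -0.145 between groups. These values show no strong deviation shared by number, but cannot tell how the libraries were handled. With the number as a block, 1 member was lower with shCENPA1, 3 lower and 1 higher with shCENPA2, and the calls of XRCC4 and LIG4 were lost. Crossing the numbers between the CENPA hairpins, as a block, gave 1 member and 757 genes called between them. That fit held only the 4 libraries of the CENPA hairpins, and the crossing was chosen after seeing the data. The fit of all 6 libraries without a block gave 0 and 208. The counts thus differ in the libraries fitted as well as in the block.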

Other observations

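Over the 45 repair genes, the difference of library 2 from library 1 correlated with the log10 of gene length at r = -0.409 with shCENPA1, at 0.322 in shNT and at 0.075 with shCENPA2, and over the 14624 genes tested at -0.262, 0.044 and 0.011. These are descriptions over genes, which share the libraries and are not independent replicates. The 4 translesion polymerases, all lower in shCENPA1 library 2, did not follow length among themselves: the gap was 0.47 for POLH (3603 bases), 0.54 for POLK (9255 bases), 0.40 for REV3L (16682 bases) and 0.01 for REV1 (8937 bases).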
